A study of Mus musculus with 12 samples.

Results

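The 50 genes described here encode proteins of the presynaptic terminal: synaptic vesicle membrane proteins and synapsins, calcium sensors, SNARE proteins and complexins, Rab3 proteins, scaffold and priming proteins of the active zone, and proteins of vesicle endocytosis. They were chosen by name, by a rule that uses no measured value, but with earlier results of these data known. They are 50 of the 50600 Ensembl gene identifiers counted in the series. All 50 symbols matched an identifier and all 50 passed the filter on low counts, although Cplx3 passed it through its P1 libraries. The series, which concerns zinc uptake and storage while the cortex forms, measured poly(A)+ RNA of the cerebral cortex in C57BL/6 mice of 4 ages, the embryonic days 11, 13 and 17 (E11, E13, E17) and postnatal day 1 (P1). The animals of the 4 ages carried no treatment or engineered allele in the labels, and each age had 3 libraries (A, B and C), each from the whole cortex of 1 animal, with the 3 animals of an age taken from different litters. The 12 libraries were stranded poly(A)+ libraries sequenced together as 75 bp single-end reads.

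At a presynaptic terminal, vesicles filled with transmitter are tethered near the release site, primed by Munc13 and RIM proteins, and fused with the membrane by the SNARE proteins when calcium binds a synaptotagmin. Dynamin, amphiphysin, endophilin and synaptojanin then retrieve the vesicle membrane. In the mouse cortex the first excitatory neurons are born in the embryonic period sampled here, while most synapses form after birth.

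Promoter sequences are shown for 3 members: the synapsin gene Syn1 and the Munc13 gene Unc13a, which both rose from E11 to P1, and the Munc13 gene Unc13b, which fell. They are RefSeq windows of 300 bases around the annotated start of transcription, most of it upstream, on GRCm38.p6, printed 5′ to 3′ on the strand of the gene. Syn1 lies on the minus strand at chrX:20920869-20921168, Unc13a on the minus strand at chr8:71671708-71672007 and Unc13b on the plus strand at chr4:43058703-43059002. Capitals mark matches to 2 motifs searched on both strands: RE1, the element bound by the neuronal gene repressor REST, by its consensus with up to 3 mismatches, and CRE, the element bound by CREB, as TGACGTCA with no mismatch.
Syn1: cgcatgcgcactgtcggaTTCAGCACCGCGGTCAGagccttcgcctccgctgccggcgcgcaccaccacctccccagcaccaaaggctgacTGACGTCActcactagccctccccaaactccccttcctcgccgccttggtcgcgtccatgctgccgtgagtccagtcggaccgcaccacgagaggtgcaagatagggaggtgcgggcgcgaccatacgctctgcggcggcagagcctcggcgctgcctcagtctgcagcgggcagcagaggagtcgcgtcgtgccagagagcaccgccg
Unc13a: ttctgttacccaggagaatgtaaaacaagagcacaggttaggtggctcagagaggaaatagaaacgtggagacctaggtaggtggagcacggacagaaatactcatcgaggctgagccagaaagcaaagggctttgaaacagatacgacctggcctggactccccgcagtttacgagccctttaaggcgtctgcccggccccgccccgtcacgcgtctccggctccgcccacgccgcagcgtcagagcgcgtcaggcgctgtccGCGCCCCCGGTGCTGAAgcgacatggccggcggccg
Unc13b: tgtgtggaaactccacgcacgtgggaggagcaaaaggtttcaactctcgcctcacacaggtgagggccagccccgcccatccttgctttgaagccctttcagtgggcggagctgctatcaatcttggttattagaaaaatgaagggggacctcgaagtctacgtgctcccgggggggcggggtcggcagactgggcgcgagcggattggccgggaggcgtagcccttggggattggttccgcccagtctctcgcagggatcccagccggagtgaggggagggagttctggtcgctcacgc
In the Syn1 window the RE1 match began at position -232 and the CRE at position -159, counted from the annotated start. The Unc13a match, on the opposite strand, began at position 15, and the Unc13b window held no match to either motif.

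A window was found for 38 of the 50 members. Syn1 was the only member whose window matched RE1 with at most 1 mismatch, which is 2.63% of the 38, against 0.0666% of 27025 genes with a window. With at most 2 mismatches the members matched were Syn1 and Rph3a (5.26%, against 0.167% of all genes), and with at most 3 they were Syn1, Rph3a, Syt2 and Unc13a (10.5%, against 1.35%). Of 36 genes with a window among the further presynaptic genes described below, 1 (Scamp5) matched with at most 1 or 2 mismatches. There were 3 (Syt6, Scamp5 and Lin7a) with at most 3. The matches of Rph3a and Syt2, written on the strand of the motif, are shown because Rph3a rose steeply in the data below and Syt2 did not pass the test across the 4 ages.
Rph3a: GTCAGTACCACGGACAG
Syt2: CTGCGCACCGAGGACAG
The CRE was found in the windows of Syn1 and Sh3gl2 (5.26%, against 2.03% of all genes), and the 2 motifs did not overlap. Of the 36 further genes 1 held a CRE (Napa). The median GC content was 62.3% over the windows of the members and 52.7% over all windows. The windows of Doc2a, Doc2b, Rims2, Rims4, Snap25, Syn3, Syngr3, Syt13, Syt4, Syt5, Syt7 and Vamp2 were not used here.

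Total counts were 28173745 to 45858712 per library. Levels are given as CPM, which scales the counts of each library to the same total after TMM adjustment, and a change is called where the adjusted p of edgeR's quasi-likelihood test (Benjamini-Hochberg, over all 17847 tested genes) is under 0.05. Markers of neurons in general rose together with the presynaptic genes. The summed level of 12 pan-neuronal genes was 1510 to 1730 CPM at E11, 3020 to 3630 CPM at E13, 11600 to 11800 CPM at E17 and 12000 to 12400 CPM at P1, and Neurod2, a transcription factor of excitatory cortical neurons, averaged 28.1, 171, 361 and 294 CPM at these ages. Of these 12 genes, 12 rose at E13 against E11, 11 rose at E17 against E13, 4 rose and 2 fell at P1 against E17, and 12 rose at P1 against E11. Of all tested genes, 22.6, 36.8, 24 and 40.5% rose in these comparisons, and 25.9% fell at P1 against E17. In whole tissue fewer neurons and less of a transcript per neuron cannot be told apart. The 10 cell cycle genes summed to 3370 to 3560, 2840 to 3230, 403 to 560 and 174 to 195 CPM, and 7 markers of meningeal fibroblasts to 1180 to 1430, 793 to 1090, 14.5 to 16.8 and 14.1 to 52.9 CPM. The part of these cells in the results was not tested.

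Some libraries stood apart in markers of cells other than cortical excitatory neurons. The 8 erythroid markers summed to 13300 CPM in E11 A, against 4780 and 7430 CPM in E11 B and C, and the 6 choroid plexus markers to 37.3 CPM in E13 C, against 376 and 336 CPM in E13 A and B, and to 69.4 to 225 CPM at E11. The 11 markers of GABAergic and ventral telencephalic cells summed to 48 CPM in E11 C, against 7.77 and 4.07 CPM in E11 A and B, and to 68 CPM in E13 C, against 22.7 and 30.9 CPM in E13 A and B. This class also moved with the presynaptic genes, with sums of 393 to 473 CPM at E17 and 435 to 466 CPM at P1. At E17 against E13, 11 of its 11 genes rose (median log2 fold change 3.32), where 36.8% of all tested genes rose. The part of this class in the results was not tested. The 8 striatal markers summed to 102 CPM in E17 A, against 52.7 and 73 CPM in E17 B and C. Among the 3 libraries of an age, most members were highest in the same animal: 29 of 50 in E11 A, 34 in E13 B, 35 in E17 B and 41 in P1 C. The same count over all tested genes was not made, so it is not known whether this is particular to the members. E13 B also had the highest pan-neuronal sum of its age, 3630 CPM against 3020 and 3210 CPM, and the lowest cell cycle sum, 2840 CPM against 3130 and 3230 CPM. P1 C had the highest pan-neuronal sum of its age, 12400 CPM against 12000 and 12000 CPM. E11 A did not (1690 CPM, against 1510 and 1730 CPM). Nor did E17 B (11700 CPM, against 11600 and 11800 CPM), which had the lowest cell cycle sum, 403 CPM against 549 and 560 CPM.

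Presynaptic transcripts were already rising at E13, rose most between E13 and E17, and went on rising to P1. The steps differ in length, and E13 to E17 is longer than E11 to E13, so the values are changes per step and not rates. At E13 against E11, 36 of the 50 genes rose and 1 fell (Syt13), where 22.6% of all tested genes rose and 17.5% fell (40.1% called). The median log2 fold change was 0.96 over the members and 0 over all tested genes. At E17 against E13, 46 rose and 2 fell (Unc13b and Vamp1), where 36.8% of all genes rose and 37% fell (73.8% called), and the median was 2.26, against -0.04 over all genes. Of all genes called at that step 49.8% were rises, and 39.8% with scaling by library size alone. At P1 against E17, 36 rose and 2 fell (Syt2 and Rab3c), where 24% of all genes rose and 25.9% fell (49.9% called), and the median was 0.56, against 0 over all genes. Over the whole span, P1 against E11, 48 rose, Unc13b fell and Syt2 did not pass (40.5% of all genes rose and 41.8% fell, 82.3% called), with a median of 4, against -0.04 over all genes. Without Cplx3, which passed the filter through its P1 libraries, 36, 45, 35 and 47 of 49 rose in the 4 comparisons. The median at P1 against E11 is the same with Cplx3 set at the bound given below. In the test across the 4 ages 49 of 50 members changed, where 90.2% of all genes did. Cplx3, which its P1 libraries brought past the filter, is among these 49. Consecutive comparisons share libraries, so their values are given side by side and not correlated. Ages without overlap were common. At E13 against E11 the later libraries all lay above the earlier ones in 27.6% of all tested genes and all below in 24.2%. These shares were 37.8 and 38.3% at E17 against E13, 30.9 and 31.5% at P1 against E17, and 41.5 and 43% at P1 against E11. They stand beside each statement on overlap below.

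The counts of rises moved little with any 1 animal, and those of the few falls moved more. Leaving out 1 library at a time gave 35 to 36 rises at E13 against E11, 46 at E17 against E13, 31 to 38 at P1 against E17 and 47 to 48 at P1 against E11. The number of falls at E13 against E11 was 2 without each of E11 B, E13 C, E17 A, P1 B and P1 C and 3 without E17 C, with Rims3 and Doc2a as the further genes. At P1 against E11 Syt2 also passed without E11 B, which made 2 falls. The falls of Vamp1, Syt2 and Rab3c are taken up with these genes below. With all 3 of the libraries E11 C, E13 C, E17 A left out, a choice made after the data were seen, the rises were 35, 46, 32 and 48 in the 4 comparisons.

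**Figure D1:**
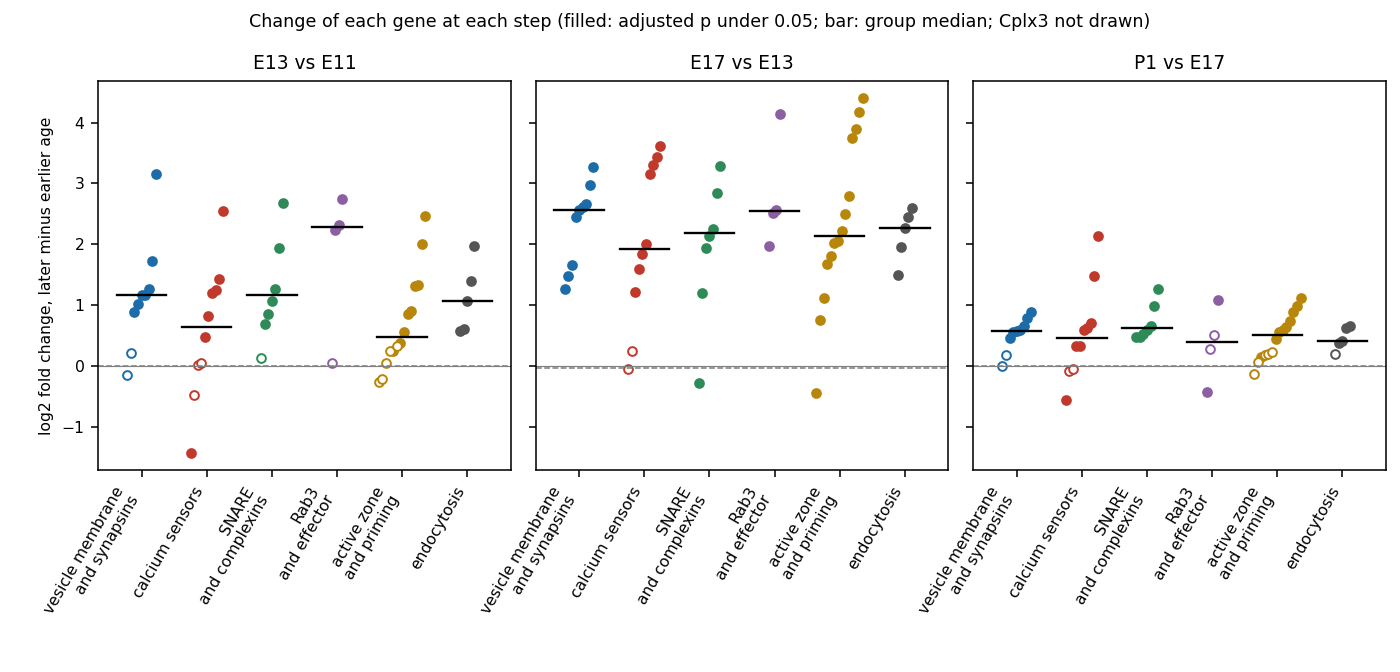
Log2 fold change of 49 presynaptic genes (vertical axis, later minus earlier age) at each of 3 steps, by function group (horizontal axis). Filled points had an adjusted p under 0.05, black bars are group medians (with Cplx3, which is not drawn), and the dashed line is the median over all tested genes. The middle panel, E17 against E13, holds the highest points, up to 4.4 for Unc13c.

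The 9 vesicle membrane and synapsin genes, whose products coat or span the synaptic vesicle, all rose at P1 against E11, by a median of 4.37 on the log2 scale. Of all tested genes, 40.5% rose at P1 against E11, and 22.6, 36.8 and 24% at the 3 steps. These shares also stand beside the counts of the other function groups below. Of the 9 vesicle genes, 7 rose at E13, 9 at E17 and 7 at P1, each against the age before, and none fell. Sv2a, a vesicle glycoprotein found in nearly all neurons, had the largest rise. Sv2a (ENSMUSG00000038486) had 12.5, 10.3 and 11.6 CPM at E11, 31.8, 44.9 and 37 CPM at E13, 204, 214 and 197 CPM at E17, and 293, 280 and 327 CPM at P1. The 4 ages did not overlap, and the log2 fold change was 1.73 ± 0.12 at E13 against E11, 2.44 ± 0.11 at E17 against E13, 0.55 ± 0.1 at P1 against E17 and 4.71 ± 0.13 at P1 against E11 (SE; adjusted p = 5.02e-07, 5.94e-10, 0.000817 and 1.69e-12). Sv2b (ENSMUSG00000053025) had 13.2, 12.4 and 10.9 CPM at E11, 23, 22.1 and 22.6 CPM at E13, 60.7, 72 and 56.1 CPM at E17, and 103, 107 and 116 CPM at P1. Sv2b, its relative in many excitatory neurons, also stepped up at each age, by 3.16 ± 0.1 over the whole span (SE; adjusted p = 1.93e-12). Syngr1, Syngr3, Syp and Sv2c, the other vesicle membrane proteins, rose by 4.5, 4.14, 3.4 and 4.37 at P1 against E11. Sv2c showed no rise past the threshold at E13 against E11 (0.21 ± 0.16, adjusted p = 0.306). Exons of the antisense gene Gm14703 cover 16.8% of the exon length of Syp, and the strand setting of the counting is not given in the sources used here.

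The 3 synapsins, which hold vesicles in a reserve cluster, followed different courses. Syn1 (ENSMUSG00000037217) had 11.3, 10.2 and 12.8 CPM at E11, 22.3, 30.8 and 24.2 CPM at E13, 155, 171 and 147 CPM at E17, and 224, 218 and 266 CPM at P1. Every library of Syn1 lay above all those of the age before it. Syn2 (ENSMUSG00000009394) had 4.96, 3.12 and 1.34 CPM at E11, 27.2, 33 and 25 CPM at E13, 55.6, 75.6 and 72.1 CPM at E17, and 69.4, 74.6 and 84.3 CPM at P1. Syn2 made its main step at E13, by 3.16 ± 0.31 against E11 (SE; adjusted p = 2.9e-05), and showed none past the threshold at P1 against E17 (0.17 ± 0.25, adjusted p = 0.608). The E11 libraries of Syn2 were far apart, with E11 C the lowest, and without it the rise at E13 against E11 was 2.81. Syn3 (ENSMUSG00000059602) had 6.2, 6.04 and 6.5 CPM at E11, 5.34, 5.95 and 5.49 CPM at E13, 41.3, 39.8 and 50.2 CPM at E17, and 43.4, 47 and 39.8 CPM at P1. Syn3 showed no change past the threshold at E13 against E11 (-0.16 ± 0.11, adjusted p = 0.26), rose by 2.97 ± 0.1 at E17 against E13 (SE; adjusted p = 2.87e-11) and again showed none at P1 against E17 (-0.01 ± 0.09, adjusted p = 0.912), with overlapping libraries. Exons of Timp3 on the other strand cover 14.1% of its exon length.

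Ratios within a library need no scaling, and 10 ratios between related members were tested across the 4 ages. The exact permutation test used the one-way F statistic over all 15400 assignments of the libraries (upper tail, adjusted by Benjamini-Hochberg over the 10 ratios). Its p asks whether the ratio differed among the 4 ages together and tests no direction and no single pair of ages. The log2 ratio of Syn1 to Syn2 counts averaged 2.05 ± 1.07 at E11, -0.14 ± 0.12 at E13, 1.23 ± 0.23 at E17 and 1.63 ± 0.07 at P1 (SD, n = 3 each; exact permutation test, adjusted p = 0.00685). The ratio was lower in every E13 library than in any library of the other ages. The difference at P1 against E11, -0.41, became 0.19 without E11 C. The log2 ratio of Sv2b to Sv2a averaged 0.09 ± 0.18, -0.73 ± 0.28, -1.71 ± 0.13 and -1.47 ± 0.07 from E11 to P1 (SD, n = 3 each; exact permutation test, adjusted p = 0.00013, from the smallest p these permutations can give, 6.49e-05).

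Among the 10 calcium sensor genes, synaptotagmins and Doc2 proteins, 9 rose at P1 against E11 and the median log2 fold change was 3.3. Of these, 6 rose and 1 fell at E13 against E11. At E17 against E13, 8 rose and none fell, and at P1 against E17, 7 rose and 1 fell. Syt4 (ENSMUSG00000024261) had 9.69, 9.55 and 5.32 CPM at E11, 53.5, 39.4 and 50.7 CPM at E13, 585, 651 and 534 CPM at E17, and 573, 598 and 541 CPM at P1. Syt4, an atypical synaptotagmin of dense-core vesicles whose first C2 domain does not bind calcium, thus had the largest rise of the group, 6.12 ± 0.22 at P1 against E11 (SE; adjusted p = 1.33e-10). It stood at its full level at E17, and the P1 and E17 libraries overlapped (-0.05 ± 0.17, adjusted p = 0.837). Syt1 (ENSMUSG00000035864) had 12.1, 8.49 and 11.2 CPM at E11, 22.5, 26.6 and 26.8 CPM at E13, 270, 291 and 254 CPM at E17, and 426, 410 and 488 CPM at P1. Syt1, the fast calcium sensor of most forebrain synapses, rose at every step, by 1.25 ± 0.12, 3.43 ± 0.12 and 0.7 ± 0.11 (SE; adjusted p = 9.41e-06, 8.52e-11 and 2e-04). The log2 ratio of Syt1 to Syt4 averaged 0.41 ± 0.63, -0.91 ± 0.34, -1.12 ± 0.04 and -0.37 ± 0.2 from E11 to P1 (SD, n = 3 each; exact permutation test, adjusted p = 0.00154). Exons of the antisense gene Gm26658 cover 14.5% of the exon length of Syt4.

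Syt11, Syt2 and Syt13 did not follow the other synaptotagmins. Syt11 (ENSMUSG00000068923) had 316, 307 and 283 CPM at E11, 427, 419 and 404 CPM at E13, 399, 401 and 409 CPM at E17, and 396, 357 and 393 CPM at P1. Syt11, an atypical family member of membrane trafficking, was high from the start: it rose by 0.47 ± 0.06 at E13 against E11 (SE; adjusted p = 3.68e-05) and showed no change past the threshold at the later steps with TMM scaling. At E17 against E13 (-0.05, adjusted p = 0.463) it passed as a fall with upper-quartile factors (-0.13, adjusted p = 0.0464) and with library size alone (-0.23, adjusted p = 0.00174), within a range of 0.00174 to 1 over all alternatives. Its rise over the whole span, 0.34 ± 0.06, was not called when libraries were scaled by their size alone (0.11, adjusted p = 0.0769, within a range of 7.68e-10 to 0.0769 over all alternatives). Syt2 (ENSMUSG00000026452) had 2.33, 1.74 and 2.71 CPM at E11, 2.25, 2.02 and 2.75 CPM at E13, 2.61, 2.79 and 2.93 CPM at E17, and 2.13, 1.78 and 1.72 CPM at P1. Syt2, a fast calcium sensor best known from the hindbrain, stayed under 3 CPM in every library. Its fall at P1 against E17, -0.57 ± 0.19 (SE; adjusted p = 0.0219), was lost without E17 C, P1 B or P1 C, where the log2 fold change was -0.53, -0.51 and -0.49 (adjusted p = 0.0716, 0.0748 and 0.0866, within a range of 0.0119 to 0.0866 over all alternatives). Syt13 (ENSMUSG00000027220) had 6.5, 6.93 and 5.03 CPM at E11, 2.65, 1.77 and 2.44 CPM at E13, 8.6, 11.4 and 7.55 CPM at E17, and 22.3, 23.9 and 29.7 CPM at P1. Syt13, an atypical synaptotagmin, was the only member that fell at E13 against E11 (-1.43 ± 0.2 SE, adjusted p = 0.000137), with no overlap between the 2 ages. It then rose by 2 ± 0.2 at E17 and 1.47 ± 0.18 at P1 (SE; adjusted p = 9.96e-07 and 2.76e-05).

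The Doc2 proteins, high-affinity calcium sensors of spontaneous and asynchronous release, also parted. Doc2b (ENSMUSG00000020848) had 2.04, 0.973 and 0.924 CPM at E11, 3.39, 3.82 and 3.49 CPM at E13, 31.6, 45.5 and 28.1 CPM at E17, and 51, 48 and 59.5 CPM at P1. Doc2a (ENSMUSG00000052301) had 5.29, 4.83 and 6.91 CPM at E11, 3.86, 4.13 and 4.23 CPM at E13, 13.6, 14.6 and 8.89 CPM at E17, and 48.9, 47.4 and 65.4 CPM at P1. Doc2b climbed from E13 on, whereas Doc2a was not past the threshold at E13 against E11 (-0.48 ± 0.21, adjusted p = 0.0929; 0.0311 without E17 C, within a range of 0.0311 to 0.375 over all alternatives) and made its largest step at P1 against E17 (2.13 ± 0.19 SE, adjusted p = 5.32e-06). The log2 ratio of Doc2a to Doc2b averaged 2.18 ± 0.76, 0.19 ± 0.08, -1.5 ± 0.25 and 0.02 ± 0.1 from E11 to P1 (SD, n = 3 each; exact permutation test, adjusted p = 0.000216). Exons of Ino80e on the other strand cover 39.4% of the exon length of Doc2a, so its counts are uncertain. The call of Doc2b at P1 against E17 (0.59 ± 0.2, adjusted p = 0.0277) was lost without E17 A, E17 C or P1 C, with adjusted p = 0.0791, 0.116 and 0.0939 (0.00334 to 0.116 over all alternatives). Syt3, Syt5 and Syt7, the last a sensor of slow release, rose by 3.35, 4.3 and 1.83 at P1 against E11. The call of Syt3 at P1 against E17 (0.32, adjusted p = 0.0327) was lost without E17 A, E17 C or P1 C, with adjusted p = 0.0934, 0.101 and 0.106 (0.00657 to 0.106 over all alternatives). Syt7 had 70.6 CPM on average at E11 and did not rise at E13 (0.01 ± 0.07, adjusted p = 0.954).

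**Figure D2:**
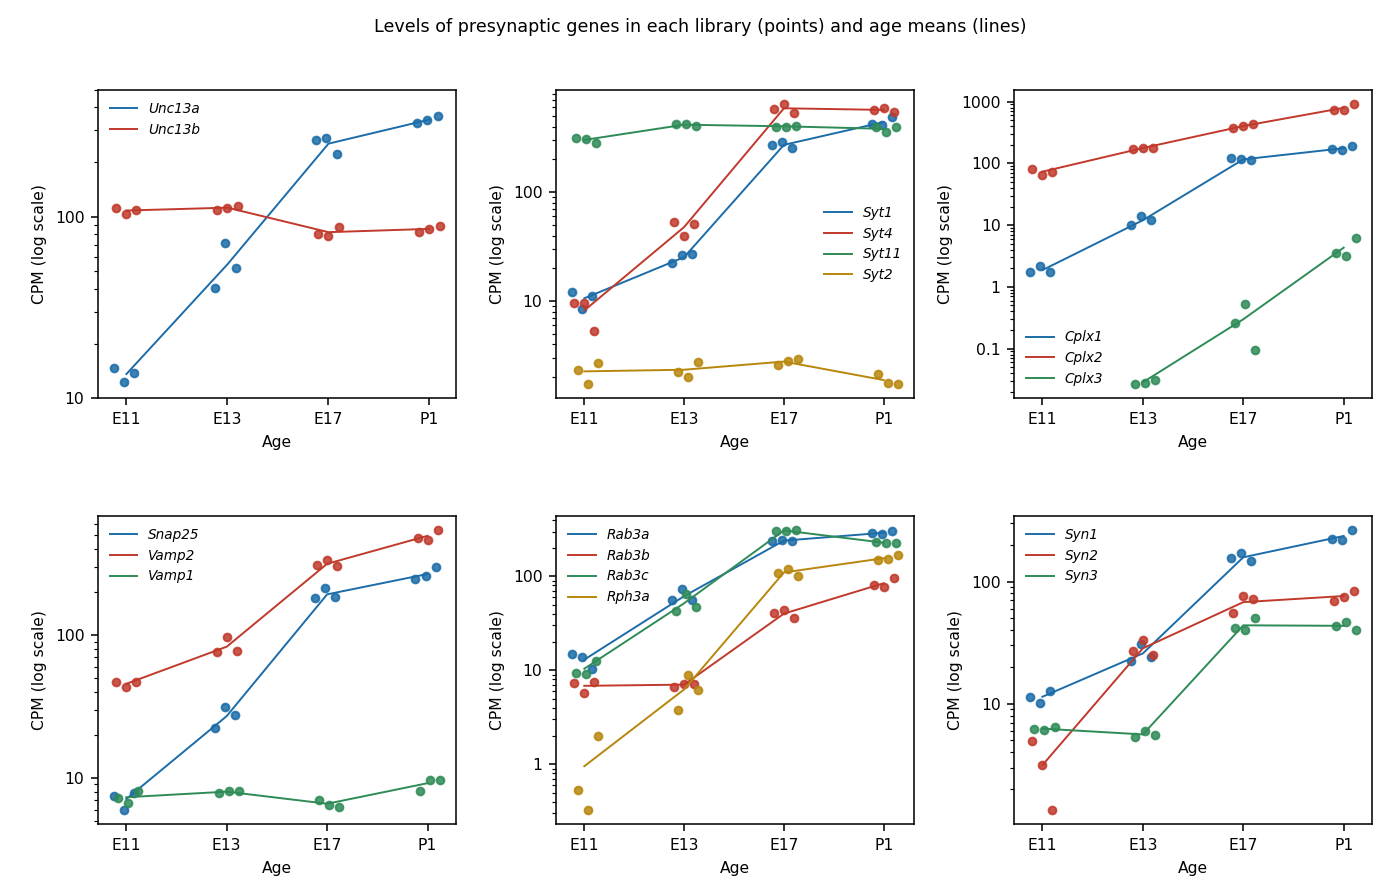
Level of 19 presynaptic genes in each of the 12 libraries (points, CPM on a log axis) and the mean of the 3 libraries of each age (lines), by age. Unc13b, Syt11, Syt2 and Vamp1 stay nearly level while their relatives climb, and Cplx3, with no counts at E11, is drawn from E13 on.

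The 8 SNARE and complexin genes make up the fusion machinery and its clamp, and the 7 other than Cplx3, which passed the filter through its P1 libraries, all rose at P1 against E11. The median of all 8 was 3.97, also with Cplx3 at its bound. Of these 7, 6 rose at E13 against E11, 6 rose and 1 fell at E17 against E13, and 7 rose at P1 against E17. Snap25 and Stx1a, the SNARE proteins of the plasma membrane, rose by 5.24 ± 0.15 and 4.2 ± 0.13 (SE; adjusted p = 8.48e-12 and 1.11e-11). Stx1a made a further step at P1, 1.26 ± 0.12 against E17 (SE; adjusted p = 5.67e-06), and its E17 mean was 41.8% of its P1 mean. Napb, the neuronal SNAP adaptor that helps NSF take SNARE complexes apart, rose by 3.74 ± 0.07 over the span (SE; adjusted p = 8.96e-14).

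The vesicle SNAREs Vamp2 and Vamp1 divided sharply. Vamp2 (ENSMUSG00000020894) had 47.2, 43 and 46.7 CPM at E11, 75.6, 96.5 and 76.9 CPM at E13, 310, 336 and 303 CPM at E17, and 478, 461 and 548 CPM at P1. Vamp1 (ENSMUSG00000030337) had 7.24, 6.69 and 8.03 CPM at E11, 7.8, 8.14 and 8.09 CPM at E13, 7.04, 6.44 and 6.28 CPM at E17, and 8.12, 9.74 and 9.67 CPM at P1. Vamp2 rose at every step, by 3.44 ± 0.1 over the span (SE; adjusted p = 2.2e-12), while Vamp1 stayed between 6.28 and 9.74 CPM in all libraries. The fall of Vamp1 at E17 against E13, -0.28 ± 0.11 (SE; adjusted p = 0.0291), was lost without E13 B, E13 C, E17 B or E17 C (adjusted p = 0.06, 0.0696, 0.0729 and 0.0946, within a range of 0.00146 to 0.123 over all alternatives). Its rise at P1 against E17 was 0.48 ± 0.11 (SE; adjusted p = 0.0022). Over the span its rise of 0.33 ± 0.11 (SE; adjusted p = 0.0109) was lost without E11 B (0.26, adjusted p = 0.0526) and with library size alone (0.1, adjusted p = 0.4), within a range of 0.00262 to 0.4 over all alternatives. The log2 ratio of Vamp1 to Vamp2 averaged -2.64 ± 0.09, -3.36 ± 0.18, -5.58 ± 0.12 and -5.75 ± 0.17 from E11 to P1 (SD, n = 3 each; exact permutation test, adjusted p = 0.000278).

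Complexins bind the assembled SNARE complex and both clamp and promote fusion. Cplx1 (ENSMUSG00000033615) had 1.71, 2.18 and 1.72 CPM at E11, 10.2, 13.9 and 12 CPM at E13, 120, 117 and 112 CPM at E17, and 171, 163 and 193 CPM at P1. Cplx2 (ENSMUSG00000025867) had 81.2, 65.2 and 73.5 CPM at E11, 174, 179 and 177 CPM at E13, 374, 403 and 429 CPM at E17, and 728, 723 and 927 CPM at P1. Cplx1 rose by 2.68 ± 0.14, 3.28 ± 0.1 and 0.59 ± 0.09 at the 3 steps (SE; adjusted p = 5.35e-08, 2.06e-11 and 0.000161), and Cplx2 by 1.27 ± 0.1, 1.19 ± 0.1 and 0.98 ± 0.1 (SE; adjusted p = 1.07e-06, 1.39e-07 and 7.52e-06). That of Cplx1 to Cplx2, as a log2 ratio of counts, averaged -5.28 ± 0.35, -3.89 ± 0.21, -1.79 ± 0.15 and -2.17 ± 0.09 from E11 to P1 (SD, n = 3 each; exact permutation test, adjusted p = 0.00013). Cplx3 (ENSMUSG00000039714) had 0, 0 and 0 CPM at E11, 0.0265, 0.0281 and 0.0309 CPM at E13, 0.265, 0.537 and 0.0938 CPM at E17, and 3.52, 3.2 and 6.25 CPM at P1. Cplx3, known from retinal ribbon synapses and from subplate neurons of the cortex, had 0 counts at E11, 3 at E13, 26 at E17 and 518 at P1 over the 3 libraries. Its level at P1 was at least 145-fold higher than at E11, taking a floor of 3 counts over the 3 E11 libraries. The ratio of P1 to E13 was 155 (95% counting interval 52.6 to 752), which covers counting error only. Its fitted log2 fold change at P1 against E17 was 3.95, and 4.7 without E17 B, the highest of the E17 libraries, given as a description because the P1 libraries brought the gene past the filter.

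Rab3 proteins are small GTPases of the vesicle surface, and Rph3a (rabphilin) is their effector; all 4 genes rose at P1 against E11, with a median of 4.47. At E13 against E11, 3 of the 4 rose, at E17 against E13, 4 rose, and at P1 against E17, 1 rose and 1 fell. Rph3a (ENSMUSG00000029608) had 0.532, 0.324 and 2.01 CPM at E11, 3.81, 8.87 and 6.11 CPM at E13, 109, 119 and 101 CPM at E17, and 149, 152 and 168 CPM at P1. Rph3a rose by 7.39 ± 0.42 over the span (SE; adjusted p = 3.85e-08), the largest rise of any member apart from Cplx3. Its E11 C library lay above the other E11 libraries, and without it the rise was 8.5 and that at E13 against E11 3.85, against 2.74 ± 0.48 with it (SE; adjusted p = 0.00153). The E11 libraries of Rph3a held 18, 11 and 63 counts. Rab3b (ENSMUSG00000003411) had 7.3, 5.75 and 7.49 CPM at E11, 6.72, 7.19 and 7.22 CPM at E13, 40.6, 44.1 and 35.6 CPM at E17, and 80.3, 77.1 and 96.1 CPM at P1. Rab3b showed no change past the threshold at E13 against E11 (0.04 ± 0.12, adjusted p = 0.822), with overlapping libraries, and rose at both later steps (2.51 ± 0.12 and 1.08 ± 0.11 SE, adjusted p = 3.32e-10 and 5.67e-06).

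Rab3c (ENSMUSG00000021700) had 9.42, 9.05 and 12.6 CPM at E11, 42.5, 65.4 and 47.3 CPM at E13, 304, 306 and 314 CPM at E17, and 230, 228 and 228 CPM at P1. Rab3c was higher in every E17 library than in any P1 library, and its log2 fold change at P1 against E17 was -0.43 ± 0.14 (SE; adjusted p = 0.0204). That call was lost without E17 A, E17 C, P1 A, P1 B or P1 C, where the log2 fold change was -0.42, -0.42, -0.41, -0.4 and -0.41 and the adjusted p 0.0575, 0.0581, 0.0658, 0.0709 and 0.0733 (4.45e-05 to 0.0927 over all alternatives). Rab3a, the most abundant Rab3 of brain vesicles, rose by 4.48 ± 0.14 over the span (SE; adjusted p = 1.16e-11). At P1 against E17 its libraries did not overlap, yet it missed the threshold (0.28 ± 0.12, adjusted p = 0.066) and passed it without E11 C or E13 B (adjusted p = 0.0203 and 0.0186, within a range of 0.000702 to 0.175 over all alternatives).

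Of the 14 active zone and priming genes, 13 rose and 1 fell at P1 against E11 (40.5 and 41.8% of all tested genes), with a median of 3.98. At E13 against E11, 9 rose and none fell, at E17 against E13, 13 rose and 1 fell, and at P1 against E17, 9 rose and none fell. The Munc13 genes, which encode the proteins that make docked vesicles ready for fusion, took different courses. Unc13b (ENSMUSG00000028456) had 111, 103 and 109 CPM at E11, 109, 111 and 115 CPM at E13, 80.1, 78.5 and 87.7 CPM at E17, and 82.1, 85.9 and 88.7 CPM at P1. Unc13b, the gene of Munc13-2, which has a broadly expressed isoform besides a brain one, did not pass at E13 against E11 (0.05 ± 0.05, adjusted p = 0.471) and fell by 0.45 ± 0.06 at E17 against E13 (SE; adjusted p = 5.93e-06), with no overlap between E17 and E13. Unc13a (ENSMUSG00000034799) had 14.7, 12.3 and 13.8 CPM at E11, 40.5, 71.2 and 52 CPM at E13, 265, 270 and 221 CPM at E17, and 328, 341 and 357 CPM at P1. Unc13a, the gene of Munc13-1, the main priming protein of forebrain glutamate synapses, rose by 2 ± 0.18 at E13 and 2.21 ± 0.17 at E17 (SE; adjusted p = 9.06e-06 and 2.74e-07). Its rise at P1 against E17, 0.44 ± 0.16 (SE; adjusted p = 0.0388), was lost without E13 C or any 1 of the 6 libraries compared (log2 fold change 0.35 to 0.5, adjusted p up to 0.141, which is also the highest over all alternatives), although the P1 and E17 libraries did not overlap.

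The log2 ratio of Unc13a to Unc13b averaged -2.99 ± 0.08, -1.07 ± 0.4, 1.61 ± 0.24 and 2 ± 0.01 from E11 to P1 (SD, n = 3 each; exact permutation test, adjusted p = 0.00013). As a ratio of counts this was 0.126, 0.475, 3.06 and 4. At E13 it was higher in E13 B, 0.641, than in E13 A and C, 0.371 and 0.451. Unc13c (ENSMUSG00000062151) had 0.384, 0.059 and 0.414 CPM at E11, 0.185, 0.0842 and 0.833 CPM at E13, 7.39, 7.59 and 7.62 CPM at E17, and 16.6, 14.7 and 17.7 CPM at P1. Unc13c, the Munc13-3 gene known chiefly from the cerebellum, was under 1 CPM in each E11 and E13 library and rose by 4.4 ± 0.46 at E17 against E13 (SE; adjusted p = 3.4e-06), or by 5.76 without E13 C, which held 27 of its E13 counts, against 7 and 3 in E13 A and B. Its rise at P1 against E17 (1.11 ± 0.32, adjusted p = 0.0137) was lost without P1 C (1.07, adjusted p = 0.0504, within a range of 3.54e-05 to 0.164 over all alternatives).

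RIM proteins tether vesicles and calcium channels at the active zone, and their genes rose at different ages. Rims1 (ENSMUSG00000041670) had 2.63, 2.18 and 2.77 CPM at E11, 4.34, 4.72 and 4.57 CPM at E13, 67.8, 71.5 and 63.5 CPM at E17, and 100, 98 and 107 CPM at P1. Rims2 (ENSMUSG00000037386) had 20.8, 16.3 and 22.3 CPM at E11, 27.6, 26.5 and 23 CPM at E13, 39.3, 44 and 46 CPM at E17, and 51.3, 53.4 and 46.5 CPM at P1. Rims1 rose by 3.9 ± 0.08 at E17 against E13 (SE; adjusted p = 2.61e-12), whereas Rims2 rose by 0.75 ± 0.11 (SE; adjusted p = 3.12e-05). The rise of Rims2 at E13 against E11, 0.38 ± 0.11 (SE; adjusted p = 0.0162), was lost without E11 B, E13 A or E13 B (0.25, 0.32 and 0.36, adjusted p = 0.0656, 0.0557 and 0.0535, within a range of 0.00587 to 0.0656 over all alternatives). For Rims1 to Rims2 the log2 ratio averaged -2.96 ± 0.06, -2.49 ± 0.17, 0.65 ± 0.16 and 1.02 ± 0.17 from E11 to P1 (SD, n = 3 each; exact permutation test, adjusted p = 0.00013). Rims3 and Rims4, the short RIM forms, rose by 2.38 and 4.42 over the span. Neither passed at E13 against E11 (Rims3 -0.27 ± 0.1, adjusted p = 0.0546; Rims4 -0.21 ± 0.14, adjusted p = 0.265). Rims3 passed as a fall in 12 of 22 alternatives, among them those without E11 B, E13 C, E17 A, E17 C, P1 B or P1 C (-0.36 to -0.18 and adjusted p = 0.0207 to 0.222 with 1 library left out). Rimbp2, which links RIM to calcium channels, did not pass at E13 against E11 (0.24 ± 0.15, adjusted p = 0.211) and rose by 4.17 ± 0.12 at E17 against E13 (SE; adjusted p = 9.89e-12).

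ELKS proteins, encoded by Erc1 and Erc2, are scaffolds of the active zone, and Erc1 is also used outside neurons. Erc1 (ENSMUSG00000030172) had 105, 94.5 and 100 CPM at E11, 110, 126 and 120 CPM at E13, 250, 269 and 251 CPM at E17, and 292, 279 and 281 CPM at P1. Erc2 (ENSMUSG00000040640) had 12.8, 12 and 11.2 CPM at E11, 27.1, 33.4 and 28.6 CPM at E13, 164, 169 and 171 CPM at E17, and 247, 257 and 275 CPM at P1. Erc2 rose by 4.44 ± 0.09 at P1 against E11 and Erc1 by 1.5 ± 0.06 (SE; adjusted p = 8.96e-14 and 2.03e-11). For Erc2 to Erc1 the log2 ratio averaged -3.06 ± 0.09, -2 ± 0.08, -0.61 ± 0.06 and -0.13 ± 0.11 from E11 to P1, without overlap between ages (SD, n = 3 each; exact permutation test, adjusted p = 0.00013). The rise of Erc1 at P1 against E17, 0.15 ± 0.06 (SE; adjusted p = 0.0498), lay at the threshold and was lost without each of E11 A, E11 C, E13 C, E17 A, E17 C, P1 A and P1 C (0.13 to 0.18, adjusted p = 0.0297 to 0.146 with 1 library left out). Exons of the antisense gene Gm44317 cover 11.8% of the exon length of Erc1.

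Bassoon and Piccolo, giant scaffold proteins that travel together to nascent active zones, moved nearly in step. Bsn (ENSMUSG00000032589) had 23.4, 18.1 and 24.3 CPM at E11, 44.2, 66.4 and 54.1 CPM at E13, 231, 235 and 220 CPM at E17, and 254, 254 and 260 CPM at P1. Pclo (ENSMUSG00000061601) had 27.9, 22.1 and 24 CPM at E11, 37.4, 58.9 and 41.8 CPM at E13, 184, 206 and 169 CPM at E17, and 211, 215 and 216 CPM at P1. Bsn rose by 3.55 ± 0.14 and Pclo by 3.12 ± 0.16 over the span (SE; adjusted p = 1.5e-10 and 1.73e-09), and neither passed the threshold at P1 against E17 (0.17 ± 0.12 and 0.2 ± 0.14, adjusted p = 0.293 and 0.261). For Bsn to Pclo the log2 ratio averaged -0.18 ± 0.17, 0.26 ± 0.1, 0.3 ± 0.1 and 0.26 ± 0.02 from E11 to P1 (SD, n = 3 each; exact permutation test, adjusted p = 0.0147), the smallest shift of the 10 ratios apart from the difference of Syn1 to Syn2 at P1 against E11. Ppfia2 and Ppfia3, liprin-alpha scaffolds, rose by 5.13 and 2.92. Ppfia2 was at 100% of its highest mean at E17 and 90.7% at P1, and exons of other-strand genes, Acss3 and C230021G24Rik, cover 24.5% of its exon length.

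**Figure D3:**
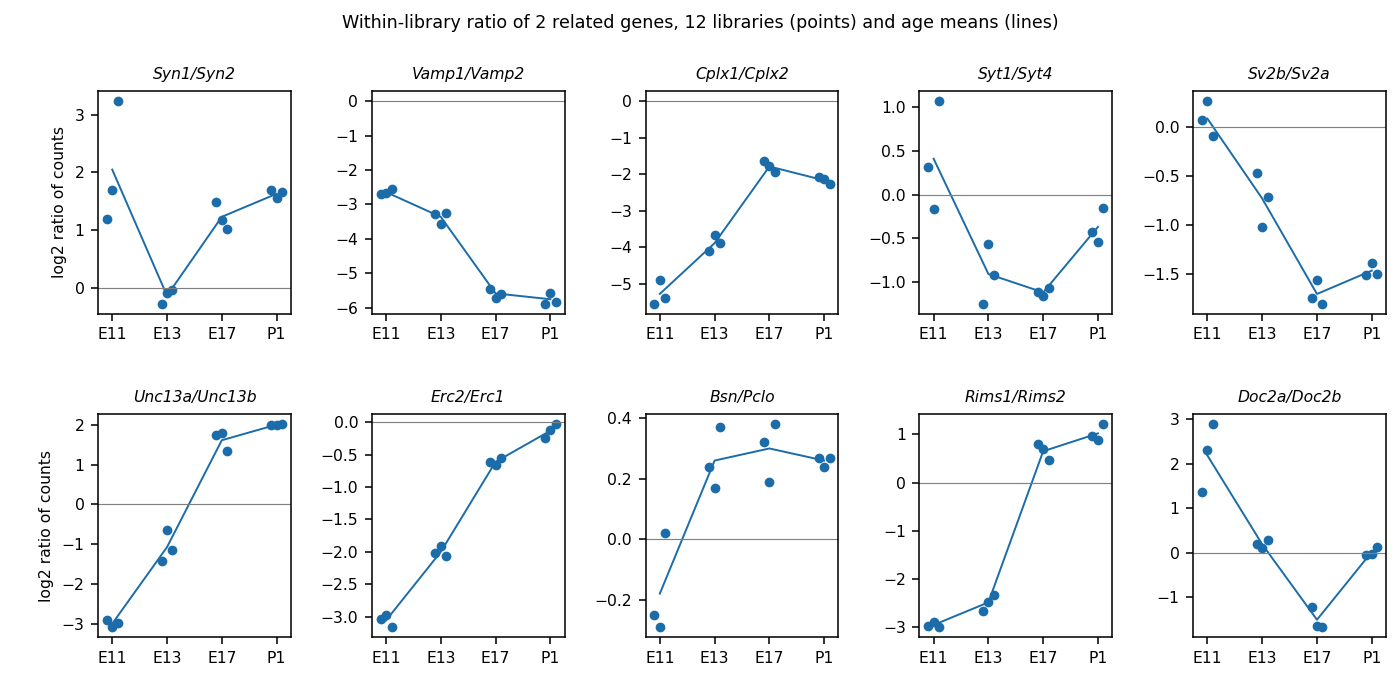
Log2 ratio of the counts of 10 pairs of related genes in each of the 12 libraries (points) and the mean of each age (lines), by age. The ratio of Unc13a to Unc13b is 2 at P1 and -2.99 at E11 and crosses 0, the line of equal counts, between E13 and E17, and so does that of Rims1 to Rims2.

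The 5 endocytosis genes, whose products retrieve vesicle membrane after fusion, rose in all 4 comparisons except Sh3gl2 at P1 against E17, with a median of 3.72 at P1 against E11. Snap91 (ENSMUSG00000033419) had 12.8, 11.9 and 10.7 CPM at E11, 39.8, 57.3 and 42.3 CPM at E13, 255, 269 and 233 CPM at E17, and 377, 368 and 420 CPM at P1. Snap91, the clathrin adaptor AP180, had the largest rise, 5.04 ± 0.14 (SE; adjusted p = 6.45e-12), and its 4 ages did not overlap. Synj1 (ENSMUSG00000022973) had 36.6, 29.4 and 36.1 CPM at E11, 43.8, 61.1 and 46.7 CPM at E13, 148, 143 and 136 CPM at E17, and 181, 181 and 189 CPM at P1. Synj1, the lipid phosphatase synaptojanin that uncoats vesicles, had the smallest, 2.43 ± 0.12 (SE; adjusted p = 3.48e-10), and it had the highest E11 level of the group per kilobase of exon (4.21 CPM per kb). Dnm1 (dynamin, which cuts the vesicle neck), Amph (amphiphysin) and Sh3gl2 (endophilin A1) rose by 3.86, 3.72 and 3.54. Sh3gl2 did not pass at P1 against E17 (0.19 ± 0.1, adjusted p = 0.118; 0.0317 without E11 C, within a range of 0.0115 to 0.261 over all alternatives).

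The order of onset was described as the first age at which a gene's mean CPM reached 50% of its highest age mean, with no test. It was E11 for 4 members (Syt2, Syt11, Vamp1 and Unc13b), E13 for 1 (Rims2), E17 for 39 and P1 for 6 (Syt13, Doc2a, Stx1a, Cplx3, Rab3b and Unc13c). No age between E13 and E17 was sampled, so an onset at E17 means that 50% was reached after E13 and by E17. Over all tested genes 71.5% had their onset at E11, 5.83% at E13, 18.3% at E17 and 4.36% at P1. The median member stood at 6.29% of its highest mean at E11, 13.6% at E13, 68.1% at E17 and 100% at P1, and the median pan-neuronal gene at 8.53, 26.9, 96.4 and 99.1%. The median presynaptic gene was thus further from its highest mean at E17 than the median pan-neuronal gene. The summed level of the 50 members was 72.5, 73.2 and 65.3% of the pan-neuronal sum in E11 A, B and C, 62.8, 60.1 and 61.1% at E13, 60.7, 64 and 58.1% at E17, and 78.1, 77.3 and 83.5% at P1. Every P1 library lay above every earlier library in that measure.

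By function, the median percent of the highest mean at E17 was 66.8 for vesicle membrane proteins and synapsins, 73.2 for calcium sensors, 65 for SNARE proteins and complexins, 76.5 for Rab3 proteins and rabphilin, 70.6 for active zone and priming proteins and 75.6 for endocytosis. All 9 vesicle membrane and synapsin genes and all 5 endocytosis genes had their onset at E17, as did 6 of 10 calcium sensors, 5 of 8 SNARE and complexin genes, 3 of 4 Rab3 genes and 11 of 14 active zone genes. The members with an earlier or later onset belonged to 4 of the 6 groups. Just inside the threshold were Rims2 at E13 (51%) and Cplx2 and Rims3 at E17 (50.7 and 50.8%), and just outside it Rab3b and Unc13c at E17 (47.5 and 46.2%). Leaving out 1 library at a time changed the onset age of at most 3 members, from among Rims2, Rims3, Rims4, Cplx2 and Rab3b. Rims2 lost its onset at E13 without E13 A, E17 A, E17 B, E17 C or P1 C, which left no member with that age.

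**Figure D4:**
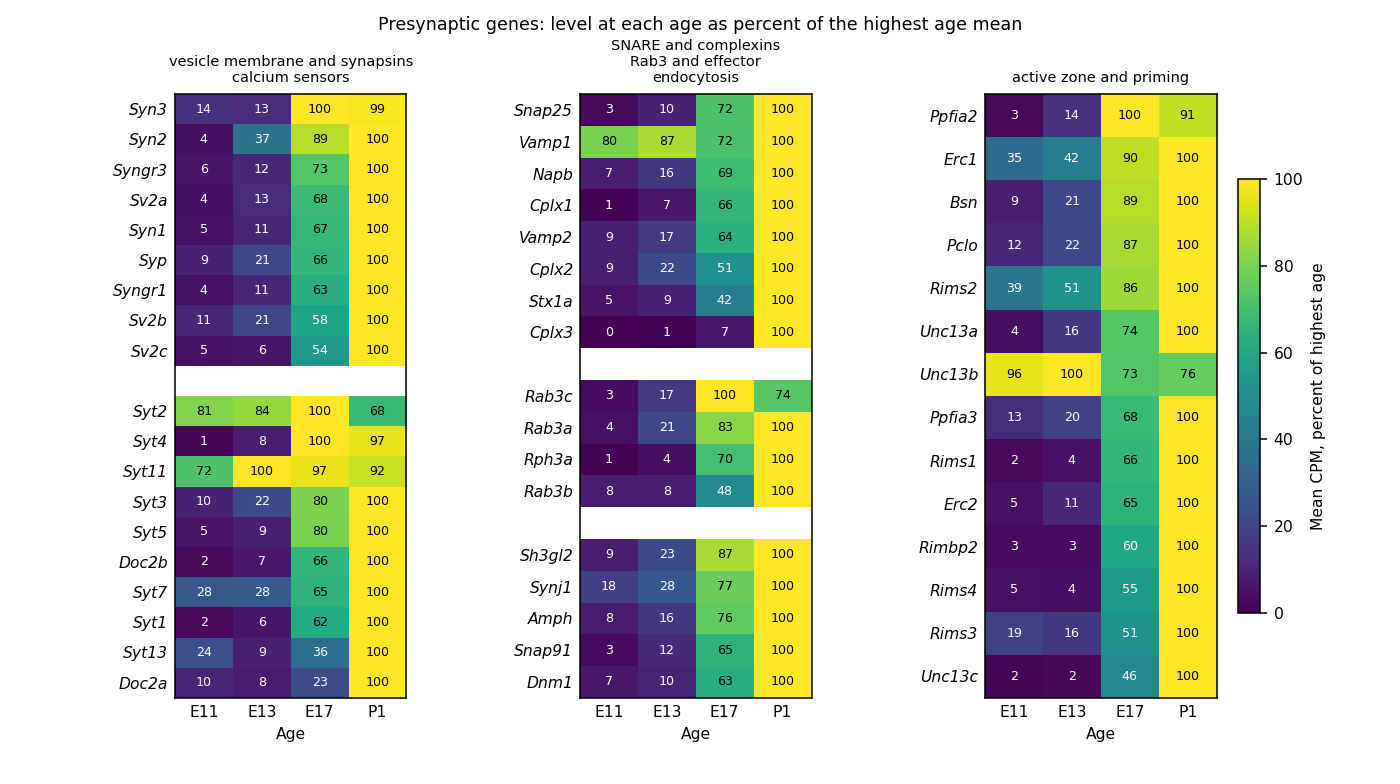
Mean CPM of each of the 50 genes at each age as a percent of its highest age mean (colour and printed number), grouped by function and ordered by the E17 value. Most rows are dark at E11 and E13 and bright at E17 and P1, and Vamp1, Syt2, Syt11 and Unc13b are bright throughout.

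Levels of different genes were compared per kilobase of exon, using the exon union of GENCODE vM21, since the annotation the authors counted with is not given in the sources used here. On that scale the highest members at E11 were Syt11 (58 CPM per kb), Cplx2 (14.9) and Vamp2 (12). At E17 they were Syt4 (152), Rab3a (108), Vamp2 (83) and Cplx2 (81.6), and at P1 Cplx2 (161), Syt4 (147), Rab3a (131) and Vamp2 (130). Syt11, highest of the 50 at E11 and E13, was the 7th at P1 with 73.4 CPM per kb. Unc13b also dropped in rank, but unlike Syt11 its level was lower at P1 than at E11. It stood at 4.74, 4.92, 3.61 and 3.76 CPM per kb at E11, E13, E17 and P1, which was the 8th, 19th, 43rd and 44th place. Syt2 was lowest of all at P1, with 0.246 CPM per kb.

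Counting the members only, the make-up of several protein families changed with age on the per-kilobase scale. Syt11 made up 75.6 ± 1.07% of 8 synaptotagmin genes at E11, 70.6 ± 1.25% at E13, 22.8 ± 1.61% at E17 and 19.3 ± 0.923% at P1 (SD, n = 3 each). Syt4 made up 2.72 ± 0.691, 10.8 ± 1.55, 44.5 ± 1.72 and 38.5 ± 2.49%, and Syt1 1.66 ± 0.304, 2.68 ± 0.321, 9.58 ± 0.093 and 13.9 ± 1.08% (SD, n = 3 each). Among Munc13 genes Unc13b made up 81 ± 1.09, 53.6 ± 6.77, 14.9 ± 2.14 and 11.5 ± 0.121%, while Unc13a made up 18.4 ± 0.766, 46 ± 6.93, 81.6 ± 2.46 and 82.8 ± 0.347% (SD, n = 3 each). At E13 the 2 genes stood near equal shares, with the widest spread between animals of the 4 ages.

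Among complexins Cplx1 made up 5.51 ± 1.31, 13.2 ± 1.66, 39.5 ± 2.49 and 33.2 ± 1.41% (SD, n = 3 each), and Cplx2 nearly all of the rest, with Cplx3 at 0.591 ± 0.149% at P1. Of the 4 Rims genes, Rims3 made up 56.2, 46.7, 30.1 and 34.5% from E11 to P1, Rims2 24.7, 32.5, 11 and 7.47%, Rims4 14.7, 12.7, 34.5 and 36.8%, and Rims1 4.46, 8.08, 24.3 and 21.2%. Rab3a remained the main Rab3 gene of the 3 members at every age, with 67.3 ± 6.87, 81.5 ± 0.655, 74.5 ± 0.22 and 75.3 ± 0.387% (SD, n = 3 each). Rab3d, from the further presynaptic genes described below, is not counted in these shares. Its mean, not scaled for length, was 14.4, 40.3, 62.2 and 55.9 CPM from E11 to P1, against 13, 61.5, 240 and 291 CPM for Rab3a. Rab3b made up 22.6 ± 4.18% at E11, 5.98 ± 0.819% at E13, 7.85 ± 0.722% at E17 and 13.8 ± 0.941% at P1, and Rab3c was highest at E17, with 17.6 ± 0.522%. The shares describe age means and were not tested.

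**Figure D5:**
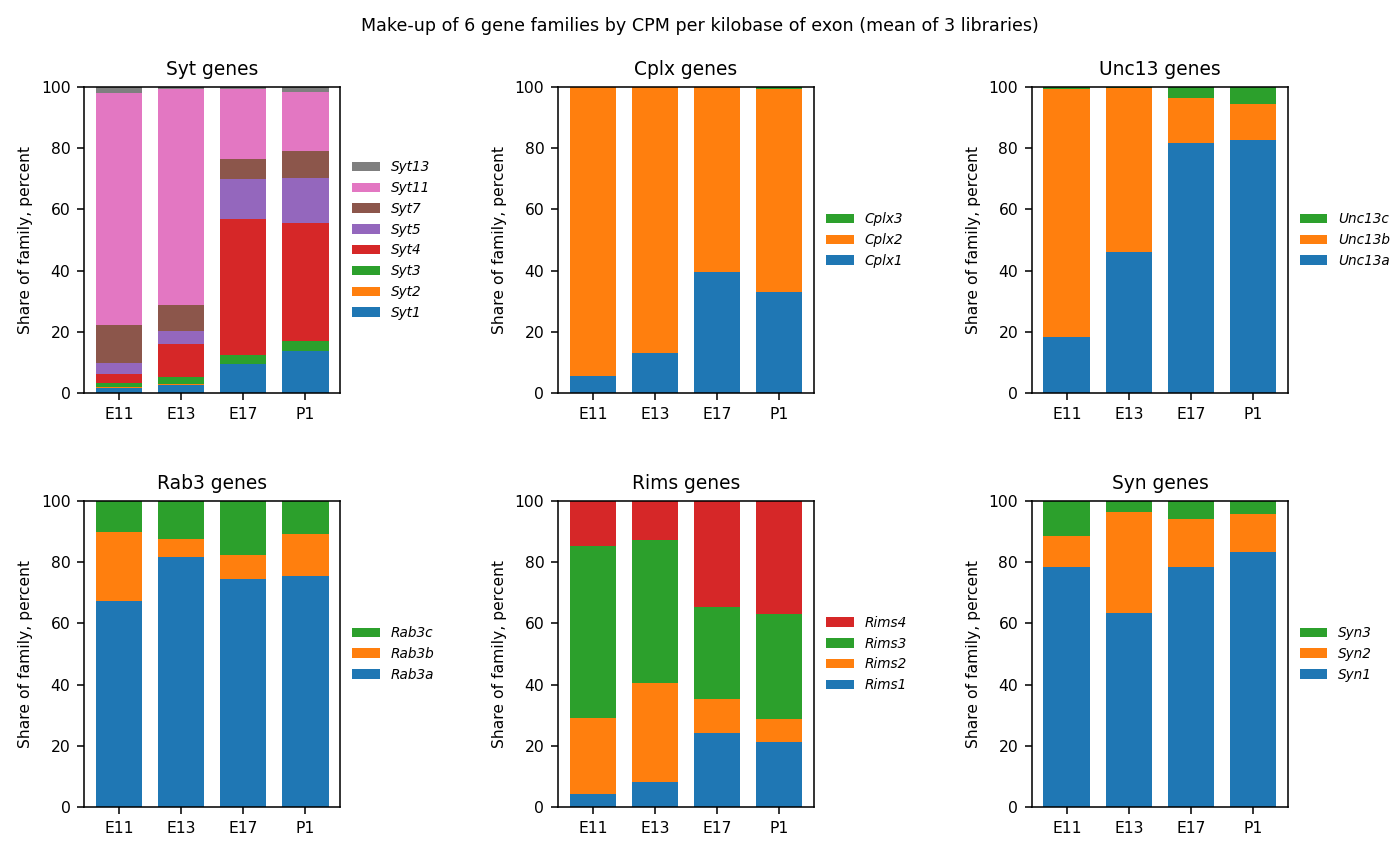
Share of each gene in the CPM per kilobase of exon of its family (vertical axis, percent, mean of 3 libraries) at each age, for 6 families of presynaptic genes. Syt11 and Unc13b take most of their families at E11, and Syt4 and Unc13a take the largest shares at E17 and P1.

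Of 50 further presynaptic genes listed by name 49 matched an identifier and 48 were tested. Of these 48, 26 rose and 5 fell at E13 against E11, 36 rose and 9 fell at E17 against E13, 25 rose and 8 fell at P1 against E17, and 39 rose and 7 fell at P1 against E11. Of all tested genes, 22.6, 36.8, 24 and 40.5% rose in these comparisons and 17.5, 37, 25.9 and 41.8% fell. The median log2 fold changes of the 48 were 0.24, 1.04, 0.25 and 1.4. An onset at E11 was found for 71.5% of all tested genes, 4 of the 50 members and 16 of the 48 further genes. The largest rises were those of Dnm3, a neuronal dynamin, and of Sncb, beta-synuclein. Dnm3 (ENSMUSG00000040265) had 2.13, 1.8 and 2.55 CPM at E11, 7.59, 12.8 and 9.04 CPM at E13, 154, 150 and 152 CPM at E17, and 173, 184 and 198 CPM at P1. Sncb (ENSMUSG00000034891) had 0.945, 0.766 and 0.956 CPM at E11, 4.23, 4.21 and 5.89 CPM at E13, 33.2, 37.3 and 39.8 CPM at E17, and 70.7, 71.7 and 85.1 CPM at P1. Both had ages that did not overlap and rose by 6.42 ± 0.18 and 6.41 ± 0.16 at P1 against E11 (SE; adjusted p = 6.67e-12 and 4.71e-13).

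The largest falls, among genes with at least 1 CPM at an age, were those of Syngr2 and Snap23, relatives of the members Syngr1 and Snap25 that are used in membrane traffic of many tissues. Syngr2 (ENSMUSG00000048277) had 16.1, 17.7 and 15.1 CPM at E11, 13.6, 11.4 and 14.8 CPM at E13, 3.71, 3.62 and 3.99 CPM at E17, and 3.89, 3.17 and 3.65 CPM at P1. Snap23 (ENSMUSG00000027287) had 42.7, 42 and 45 CPM at E11, 36, 29.8 and 36.8 CPM at E13, 11.1, 11.7 and 10.6 CPM at E17, and 9.8, 10.4 and 9.98 CPM at P1. Syngr2 fell by 2.19 ± 0.12 and Snap23 by 2.1 ± 0.08 at P1 against E11 (SE; adjusted p = 6.68e-10 and 2.45e-11). All their P1 libraries lay below those of E11, as in 43% of all tested genes. The members of the same families, Syngr1 and Snap25, rose by 4.5 ± 0.1 and 5.24 ± 0.15 (SE; adjusted p = 2.32e-13 and 8.48e-12). Vamp3 and Sypl, broadly used relatives of Vamp2 and Syp named here after their values were seen, fell by 1.5 ± 0.07 and 1.02 ± 0.08 (SE; adjusted p = 1.88e-10 and 4.43e-08). Not all such relatives fell. Snap29, Snap47 and Vamp4, the other Snap and Vamp genes tested in this list, rose by 0.65 ± 0.07, 2.01 ± 0.05 and 0.71 ± 0.06 (SE; adjusted p = 9.92e-07, 2.32e-13 and 5.68e-08).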

How the data were processed

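The deposited files hold raw read counts per Ensembl gene identifier, 1 file for each of the 12 libraries, with no normalization by the authors. The submitters' processing notes name STAR 2.5.2b, HTSeq 0.5.3, DESeq2 1.8.1, bcl2fastq 2.18 and SAMtools, without their settings. Genome build, annotation and strandedness of the counting: not given in the sources used here. The members and all gene lists were chosen with earlier results of these data known.

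Libraries were grouped by the age in the labels, with 28173745 to 45858712 counts each. The counts went into edgeR 4.0.16 (R 4.3.3): filterByExpr with a minimum count of 10 kept 17847 genes and removed 32753, TMM factors were 0.92 to 1.09, and 1 robust quasi-likelihood model with a coefficient per age was fitted to all genes and libraries. P-values are two-sided, adjusted over all tested genes with a threshold of 0.05, and measure the spread between animals. Errors of fold changes are standard errors. Ratios were log2 ratios of counts with 0.5 added. The pipeline was tested on simulated data. No library was a copy of another (chi-squared per degree of freedom 10.4 to 30 within ages), and the labels name no batch.

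Values in every library are given for the members with the largest and smallest change in each function group at P1 against E11, those that fell in any comparison, those with an onset at E11 or E13, and both genes of each ratio. Other presynaptic genes are named where theirs were the 2 largest rises or the 2 largest falls, given 1 CPM or more at an age. Rab3d, Vamp3, Sypl, Snap29, Snap47 and Vamp4 are named besides, as relatives of members.

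Alternatives were RLE, upper-quartile and library-size scaling, no filter, a filter at 1 CPM in 3 libraries, DESeq2 1.42.0, limma-voom (limma 3.58.1), a replicate block, only the libraries compared, each library left out, other onset thresholds (25 and 75%), medians in place of means, an offset of 5 in the ratios, and 3 libraries left out together, the last added after the data were seen. Sequences are from RefSeq (GRCm38.p6).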

Additional observations from a re-analysis of the deposited data

How the results depend on the processing

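Over 22 alternatives the 200 values of single members in the 4 comparisons gave 4398 results. Of these, 4304 stayed on the same side of the threshold, 56 lost their call and 38 gained one. Direction changed in 0 of the results that were called in the main fit or in the alternative. Values called in neither could change sign, as for Syt7 at E13 against E11 (0.01, and -0.04 with upper-quartile factors). The counts of rises stayed at 35 to 36 (E13 against E11), 45 to 46 (E17 against E13), 31 to 42 (P1 against E17) and 46 to 48 (P1 against E11), and the count of members that changed across the 4 ages at 49 to 50. The counts of falls, which are small, moved more. At E13 against E11 the 1 fall became 2 with RLE factors, upper-quartile factors, library size alone, the filter at 1 CPM, only the libraries compared and the 3 libraries left out together, 3 with DESeq2, and 1 to 3 with 1 library left out. At E17 against E13 the 2 falls became 3 with upper-quartile factors and with library size alone (Syt11 added), 1 with no filter, DESeq2 and the 3 libraries left out, and 1 to 2 with 1 library left out. At P1 against E17 the 2 falls became 1 with no filter and 0 to 3 with 1 library left out; where the count was 0, in edgeR without E17 C, P1 B or P1 C, Syt2 and Rab3c had an unadjusted p of 0.0242 to 0.0407, and DESeq2 and limma-voom on all libraries called 2. At P1 against E11 the 1 fall became 2 with library size alone and 1 to 2 with 1 library left out. Library size alone moved the median log2 fold change of all genes to -0.22 at E17 against E13 and -0.26 at P1 against E11, and upper-quartile factors to -0.12 and -0.13. The onset counts depend on the threshold. At 25% the onset was at E11 for 7, at E13 for 2 and at P1 for 2 members, and at 75% at E17 for 15 and at P1 for 31. RLE factors left 0 members with an onset at E13, and leaving out 1 library gave 0 to 1 at E13, 4 at E11, 37 to 41 at E17 and 5 to 8 at P1. The difference of the log2 ratio of Syn1 to Syn2 at P1 against E11, -0.41, was between -0.84 and 0.19 with 1 library left out, the 0.19 being without E11 C. A replicate block on the letters left 36, 46, 35 and 48 rises and ended the call of Erc1 at P1 against E17 (adjusted p = 0.0768). Of 18 same-letter pairs, 5 had a correlation of deviations over 0.1 (range -0.42 to 0.39, the highest for E11 C and E13 C). Of 12 libraries, 4 correlated best with their own letter. With 3 libraries per age these values cannot decide whether animals of a letter share something. With only the libraries of the 2 ages fitted, Bsn, Pclo, Ppfia2, Rims2, Rab3a, Rph3a and Sh3gl2 also passed at P1 against E17. The causes were not tested. Depth limits Cplx3, with 0 counts in each E11 library, and Unc13c, with 2 to 13.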
